A study of Rattus norvegicus with 31 samples.

Results

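Rats that had lost the dopamine (DA) supply of 1 striatum and then received only saline allow the lesioned side to be read without a drug on that day. The comparison set the lesioned side of these animals (SL, 6 arrays) against their intact side (SNL, 5 arrays), so that 11 of the 31 arrays of the series were used for the main question. Male Sprague-Dawley rats had received 6-hydroxydopamine (6-OHDA), a toxin that catecholamine neurons take up, at 2 µg/µl in 5 µl into the left medial forebrain bundle, the tract that carries the DA fibres to the striatum. Apomorphine on day 24 and methamphetamine (METH, 2.5 mg/kg) on day 31 had been given to every one of them in behavioural tests. A week after the second test they were injected with saline, and the striata were taken 2 h later. The intact side is therefore the other hemisphere of a lesioned and drug-tested animal. The paper reports that the lesion lowered serotonin as well as DA in the striatum, and no group had a vehicle-injected side. Loss of DA, loss of serotonin and the injection itself cannot be told apart in this comparison. For comparison, 6 lesioned (ML) and 6 intact (MNL) striata of lesioned rats given METH at 2.5 mg/kg, and 4 striata of unlesioned saline-treated rats (SC), for which no drug tests are given, were measured in the same way. Each array held the RNA of 1 striatum and is named here by the striatum number in its label. Which striata belong to the same rat is not in the labels, and p-values measure the spread between striata.

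RNA was hybridised to Illumina RatRef-12 BeadChips, and values are normalized log2 intensities, on which a difference of 1 is a doubling of the signal. Of 22519 probes used, 9732 were above background (detection p under 0.01) on at least 4 of the 31 arrays and were tested. They stand for 7088 genes with a symbol. Between 8253 and 9378 probes were detected per SL array and between 8194 and 9130 per SNL array, and the group means differed by less than the spread between arrays (8659 ± 417, SD, n = 6, against 8698 ± 423, SD, n = 5; exact two-sided permutation test, p = 0.879, smallest possible p = 0.00433). Differences were tested with limma in 1 fit of all 6 groups. These were the groups named above and 4 striata of unlesioned rats given METH at 2.5 mg/kg (MC). The MC arrays entered the normalization, the detection filter and the shared estimate of the spread, and are not compared here. A probe was called at an adjusted p (Benjamini-Hochberg, over the 9732 probes) under 0.05. The values of SL striatum 32 had been deposited 4 rows away from their probe names and were moved back before use. SNL striatum 19 stood apart from the other 4 SNL arrays: 1734 of its tested probes lay more than 0.5 from the group median, against 249 to 524 in the others. Many of the counts and medians that it moved are given with and without it. Ppp1r1b, which encodes the spiny neuron phosphoprotein DARPP-32, lay between 12.13 and 13.20 on all 11 arrays. Slc17a7, the vesicular glutamate transporter of cortical projection neurons, lay at 5.92 or lower and was detected on 3 of 6 SL and 3 of 5 SNL arrays. Among the other cortical markers, Neurod2 and Emx1 had group means of 5.12 to 5.27. Lamp5, Slc17a6, Bhlhe22, Emx2, Fezf2 and Neurod6 were brighter, with group means of 6.76 to 11.85. The presence of cortical tissue was not tested. Th and Slc6a3, the tyrosine hydroxylase and DA transporter genes, were detected on 0 of 31 arrays, so neither could be used to check the lesion on the arrays. The paper checked it by drug-induced rotation and by striatal DA levels, and reports a complete loss of DA on the lesioned side.

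The striatum is built mainly of GABAergic spiny neurons of 2 kinds. Those of the direct pathway carry D1 receptors and make the peptide precursors of substance P and dynorphin, and those of the indirect pathway carry D2 receptors and make enkephalin. DA acts through D1 receptors to raise cyclic AMP and through D2 receptors to lower it, and peptide genes are among the transcripts that follow this balance. The loss of DA fibres in this tract is a standard rodent model of the DA deficit of Parkinson's disease.

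On the DA-depleted side the signal of 8 probes was raised and that of 0 lowered at an adjusted p under 0.05 by limma (0.0822% and 0.0% of the probes tested). Without SNL striatum 19, 3 of these 8 were called and no others. At an unadjusted p under 0.05, 213 were higher and 247 lower (2.19% and 2.54%), a split that was 267 and 151 in the log2 table the authors deposited. The 8 called genes were Nmu, Nts and Tac3, which encode secreted peptides, Fst and Pmepa1, whose products restrain activin and TGF-beta signalling, and Krt17, Upb1 and Shisa8. For all 8 the lowest SL array was above the highest SNL array, a separation seen for 21 of all probes tested (0.216%), while 14 probes were separated the other way (0.144%). Differences of 1.7-fold or more with an unadjusted p below 0.025 numbered 13 upward and 1 downward (0.134% and 0.0103%). The plot of fold changes against p-values shows how far Nmu stands from the rest.

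**Figure D1:**
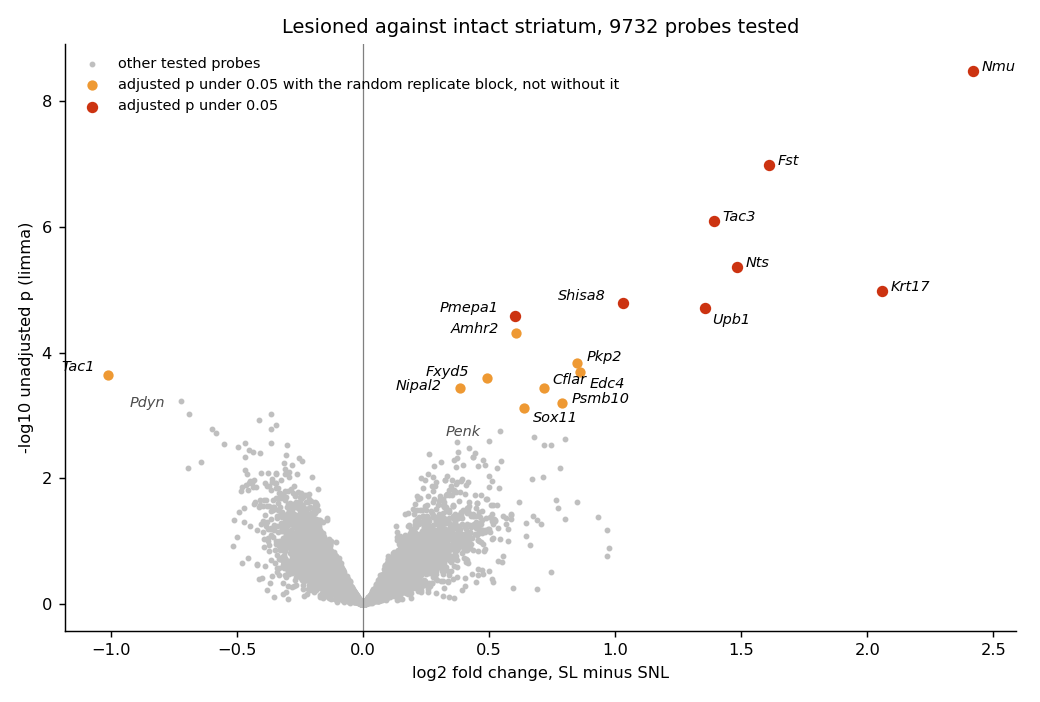
Log2 fold change (SL minus SNL, horizontal axis) against the negative log10 of the unadjusted p from limma (vertical axis) for each of the 9732 probes tested. Red points are the 8 called probes, all to the right of 0, and orange points are those called with the random replicate block and not without it in the main setting, of which Tac1 is the only one to the left.

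The labels give neighbouring striatum numbers to SNL and SL arrays (3 and 4, 11 and 12, 19 and 20, 23 and 24, 27 and 28), and in each of these 5 pairs the deviations from the group means ran together (r between 0.173 and 0.493 over the probes tested). The labels do not say that neighbours are the 2 sides of 1 rat. With these numbers as a random block in limma, 16 probes were higher and 1 was lower (0.164% and 0.0103%). This held the 8 genes above and added Amhr2, Pkp2, Edc4, Fxyd5, Cflar, Nipal2, Psmb10 and Sox11 as higher and Tac1 as lower. As a fixed block, which compares the sides within the 5 pairs alone and leaves SL striatum 32 out of that comparison, the same numbers gave 5 calls: Nmu, Nts, Fst, Pkp2 and Sox11. There Tac3 (adjusted p = 0.0801), Upb1 (0.162), Shisa8 (0.281), Krt17 (0.331) and Pmepa1 (0.331) lost their calls. Below, the block is the random one unless stated.

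For 13 of 19 genes looked up, the 17 called with the block with Pdyn and Penk, RefSeq promoter sequences (build GRCr8, 250 bases before to 50 after the start) were at hand. They were searched on both strands for the cyclic AMP response element TGACGTCA, found in 1.83% of 33469 rat promoters, and for the AP-1 motif TGANTCA, found in 7.33%. The latter was matched in 2 of the 13, Nmu and Nts, and the former in 1, Pmepa1. These 3 are shown with their match in capitals, beside that of Tac1, the gene called lower with the block, which held neither motif. The match begins 160 bases before the start in Nmu (chr14:32198693-32198992, plus strand), 212 bases before it in Nts (chr7:39460839-39461138, minus strand) and 4 bases before it in Pmepa1 (chr3:182478600-182478899, minus strand), and Tac1 lies at chr4:36645333-36645632, plus strand. A match describes the letters only and is no evidence of binding.
Nmu promoter: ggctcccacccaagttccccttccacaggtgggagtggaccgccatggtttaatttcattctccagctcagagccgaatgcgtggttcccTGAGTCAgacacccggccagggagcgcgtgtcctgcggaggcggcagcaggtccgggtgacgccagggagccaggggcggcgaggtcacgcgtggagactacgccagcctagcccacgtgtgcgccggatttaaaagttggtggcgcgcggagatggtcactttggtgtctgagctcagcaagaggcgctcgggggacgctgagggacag
Nts promoter: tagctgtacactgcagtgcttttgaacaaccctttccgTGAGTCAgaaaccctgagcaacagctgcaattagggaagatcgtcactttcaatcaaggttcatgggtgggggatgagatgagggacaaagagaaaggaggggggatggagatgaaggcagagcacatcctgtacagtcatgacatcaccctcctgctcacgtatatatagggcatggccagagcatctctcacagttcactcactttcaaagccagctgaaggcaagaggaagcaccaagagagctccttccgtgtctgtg
Pmepa1 promoter: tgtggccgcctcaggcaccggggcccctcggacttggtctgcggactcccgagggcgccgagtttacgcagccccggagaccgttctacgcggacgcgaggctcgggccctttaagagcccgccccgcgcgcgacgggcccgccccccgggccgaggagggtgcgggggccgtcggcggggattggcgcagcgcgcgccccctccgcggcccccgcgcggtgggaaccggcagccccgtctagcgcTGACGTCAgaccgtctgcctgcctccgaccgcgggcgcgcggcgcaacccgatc
Tac1 promoter: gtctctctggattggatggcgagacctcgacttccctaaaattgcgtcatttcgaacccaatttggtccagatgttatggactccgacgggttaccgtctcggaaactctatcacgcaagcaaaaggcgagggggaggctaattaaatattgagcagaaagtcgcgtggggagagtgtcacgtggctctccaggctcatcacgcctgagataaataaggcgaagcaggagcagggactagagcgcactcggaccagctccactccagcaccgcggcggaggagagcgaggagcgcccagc

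Among the peptide precursors, Nmu, the gene of neuromedin U, a peptide known for its actions on smooth muscle, feeding and stress responses, gave the widest separation. Its log2 intensity was 6.42, 6.34, 5.94, 6.29 and 6.52 on the SNL arrays and ran from 7.98 over a median of 8.90 to 9.34 on the SL arrays. The lowest SL striatum thus lay above the highest SNL striatum by more than the whole range of the SNL group. This was a 5.34-fold difference (log2 fold change 2.42, 95% confidence interval 1.82 to 3.02, adjusted p = 3.17e-05 from limma). It was called without any 1 of the 11 arrays, and the 5 neighbouring pairs differed by 1.56 to 2.94. The 4 SC striata of unlesioned rats lay between 5.45 and 6.87, around the values of the intact side and below every SL array.

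Nts, the gene of neurotensin, a peptide that modulates DA neurons and their targets, read 7.51, 7.75, 7.56, 8.01 and 8.58 in SNL and 8.88 to 9.90 in SL (median 9.37). SNL striatum 27 came closest to the SL range. The log2 fold change of 1.48 (95% confidence interval 0.94 to 2.02, adjusted p = 0.0104 from limma) was 1.40 with an adjusted p of 0.0724 without SNL striatum 19, and its adjusted p was 0.0624 without SNL striatum 3.

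Tac3, which encodes the precursor of neurokinin B, had log2 intensities of 7.45, 7.28, 6.59, 8.07 and 7.66 in SNL and of 8.19 to 9.31 in SL (median 8.80). SNL striatum 19 was its lowest array. The log2 fold change of 1.39 (95% confidence interval 0.93 to 1.85, adjusted p = 0.00257) was 1.19 without that striatum and stayed called (adjusted p = 0.0219 from limma).

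The peptides of the direct pathway lay the other way. Tac1, the gene of the substance P precursor, read 11.73, 11.00, 11.55, 11.14 and 11.32 in SNL and between 9.45 and 11.04 in SL (median 10.43). Only SL striatum 28, the highest of its group, reached into the SNL range. The log2 fold change was -1.01 (95% confidence interval -1.51 to -0.52), lower in 5 of 5 neighbouring pairs. It did not pass in the main limma fit (adjusted p = 0.182), passed with the neighbouring numbers as a random block (adjusted p = 0.0122) but not as a fixed one (0.578), and did not pass with the random block when SNL striatum 19 was left out (adjusted p = 0.059). Pdyn, the dynorphin precursor gene, read 7.52, 7.22, 8.33, 7.89 and 8.03 in SNL and 6.74 to 7.69 in SL (median 7.02). Its log2 fold change of -0.72 (95% confidence interval -1.11 to -0.34) passed neither in the main fit (adjusted p = 0.36) nor with the block (adjusted p = 0.0542). Penk, the enkephalin precursor gene of the indirect pathway, read 12.41, 12.18, 12.77, 12.47 and 12.82 in SNL and 12.55 to 13.44 in SL (median 13.21), higher in 5 of 5 neighbouring pairs by 0.31 to 0.73. With a log2 fold change of 0.54 it did not pass either (adjusted p = 0.678 from limma, and 0.0542 with the block).

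Beyond these 6 genes the peptide list did not move as one. Of 30 peptide precursor genes 23 were tested and 3 were called, against 8 of all 7088 genes with a symbol. Log2 fold changes were above 0 in 14, against 45.5% of all genes tested. Without SNL striatum 19 they were above 0 in 9 of the 23, against 3454 of the 7088. The list median of 0.08, beside -0.01 for all genes, became -0.09 without SNL striatum 19. Sst, Npy and Cck, the precursors of somatostatin, neuropeptide Y and cholecystokinin, had log2 fold changes of 0.04, 0.13 and 0.51 with unadjusted p above 0.05, and of -0.22, -0.24 and -0.08 without SNL striatum 19. Avp, the vasopressin gene, had one of 0.98 that came from SL striatum 12 alone, at 9.67 against 4.50 to 5.66 on the other 10 arrays. Of 12 granins and processing enzymes tested, 0 were called and the median was -0.01. Pcsk1, a processing enzyme gene that the paper lists as higher in SL than in SNL, had no named probe and was not tested. Of 27 peptide receptor genes 7 were tested and 0 were called, and Nmur2, Ntsr1 and Tacr3, receptors for neuromedin U, neurotensin and neurokinin B, were detected on 0 of 31 arrays.

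**Figure D2:**
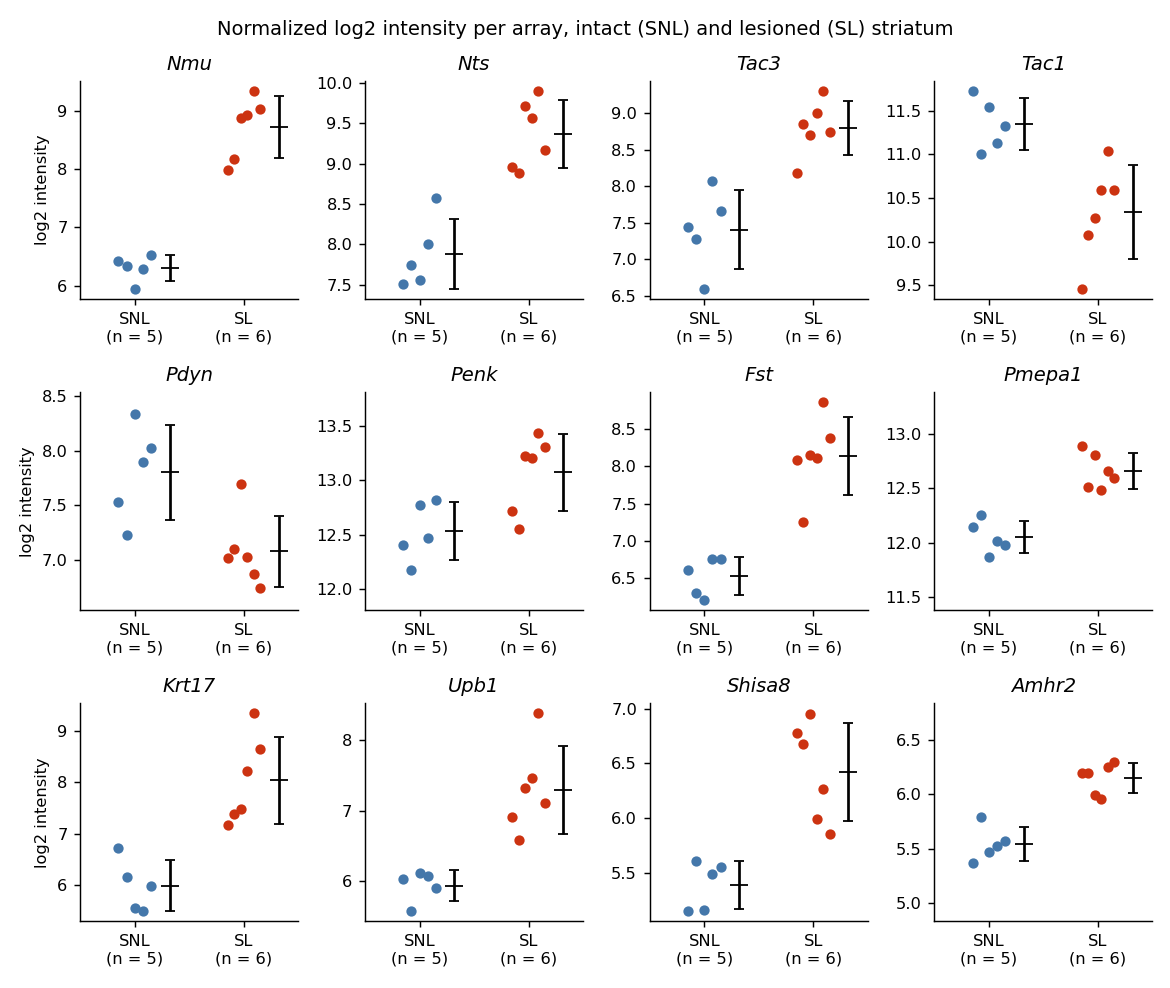
Normalized log2 intensity (vertical axis, a range of at least 2 in every panel) of 12 genes on the 5 SNL and 6 SL arrays. Each point is 1 array and the bar beside it is the group mean with SD, and in the 8 called genes the lowest SL point lies above the highest SNL point.

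In the activin and TGF-beta pathway, ligands such as inhibin beta A bind receptor kinases that act through SMAD proteins. Genes of this pathway held 2 of the 8 calls, or 2 of 28 members tested, against 8 of all 7088 genes with a symbol. Fst encodes follistatin, which binds activins outside the cell. It read 6.61, 6.31, 6.21, 6.77 and 6.76 in SNL and 7.26 to 8.86 in SL (median 8.13), a log2 fold change of 1.61 (95% confidence interval 1.13 to 2.08, adjusted p = 0.000511 from limma). It was called without any 1 of the 11 arrays, and the SC striata lay between 6.16 and 6.89. Pmepa1, whose product holds back SMAD signalling, read 12.14, 12.25, 11.87, 12.02 and 11.98 in SNL and 12.48 to 12.89 in SL (median 12.63). The log2 fold change was 0.60 (95% confidence interval 0.35 to 0.85, adjusted p = 0.0316 from limma), the smallest among the 8. The call was lost, at an adjusted p of 0.0593 to 0.198, when SNL striatum 3, 19, 23 or 27 or SL striatum 4, 20, 28 or 32 was left out.

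Other members of the pathway lay near the threshold. Amhr2, the type II receptor of anti-Mullerian hormone, read 5.37, 5.79, 5.47, 5.52 and 5.57 in SNL and 5.96 to 6.30 in SL, with no overlap. Its log2 fold change of 0.60 (95% confidence interval 0.34 to 0.86) missed the threshold in the main limma fit (adjusted p = 0.0516) and passed with the random block (0.00763) but not with the fixed one (0.292). Inhba, which encodes the inhibin beta A chain of activin, had a log2 fold change of 0.49 (95% confidence interval 0.08 to 0.90, adjusted p = 0.908), with 5.25, 4.90, 4.91, 4.84 and 5.28 in SNL and 5.20 to 6.06 in SL. It was detected on 5 of 6 SL and 2 of 5 SNL arrays. Acvr1, an activin-like receptor kinase, did not differ beyond its error (log2 fold change -0.03, 95% confidence interval -0.38 to 0.33). Of 51 genes in the list 28 were tested, and 4 were higher at an unadjusted p under 0.05, as were 2.16% of genes with a symbol, while 0 were lower. With 16 of 28 above 0 (19 without SNL striatum 19), against 45.5% of genes with a symbol, the rest lay on both sides of 0. The other 24 included the SMAD genes Smad2, Smad4 and Smad7 at -0.16, -0.06 and 0.02 and the target genes Id1, Id2 and Id3 at 0.29, 0.12 and 0.21 (0.06, 0.04 and 0.15 without SNL striatum 19), and the list median was 0.02.

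The remaining called genes belong to unlike families. Krt17, a keratin of skin appendages, read 6.72, 6.15, 5.55, 5.50 and 5.97 in SNL and 7.18 to 9.35 in SL (median 7.84), and SL striata 28 and 32 were its highest. The log2 fold change of 2.06 had a wide error (95% confidence interval 1.26 to 2.85, adjusted p = 0.0205 from limma), and the neighbouring pairs differed by 0.45 to 3.37. Leaving out SNL striatum 19, 23 or 27 or SL striatum 28 or 32 raised its adjusted p to between 0.0593 and 0.107. Pkp2, the junction plaque protein plakophilin 2, was next in the list of keratins and junction genes. It had a log2 fold change of 0.85 (95% confidence interval 0.45 to 1.25) that did not pass (adjusted p = 0.143) but passed with the random block (0.00763), the fixed block (0.0358), median scaling and without SL striatum 20 (0.0323). It was detected on 6 of 6 SL and 3 of 5 SNL arrays. Of the other 4 members tested, Krt8 was at 0.20 and Plec, Epcam and Jup lay between -0.03 and 0.02.

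Upb1, the enzyme that makes beta-alanine in the last step of pyrimidine breakdown, read 6.02, 5.57, 6.12, 6.07 and 5.91 in SNL and 6.58 to 8.39 in SL (median 7.22), with a log2 fold change of 1.36 (95% confidence interval 0.81 to 1.90, adjusted p = 0.0267 from limma). SL striatum 28 was its highest array. It stayed called without SL striatum 4 or 12 and was lost without any other 1 of the 11 arrays (SNL striata 3, 11, 19, 23 and 27, SL striata 20, 24, 28 and 32), at an adjusted p of 0.0517 to 0.111. Of the other 10 genes of pyrimidine breakdown and salvage tested, 9 had an unadjusted p above 0.05, and Nt5e, which makes adenosine outside the cell, had a log2 fold change of -0.32 (unadjusted p = 0.0346). Dpys, the enzyme one step before Upb1, was detected on 0 of 31 arrays. Shisa8, an auxiliary protein of AMPA-type glutamate receptors, read 5.15, 5.61, 5.16, 5.49 and 5.55 in SNL and 5.85 to 6.95 in SL (median 6.47). SL striata 4, 12 and 20 were its highest arrays, and its log2 fold change was 1.03 (95% confidence interval 0.62 to 1.44, adjusted p = 0.0265). Leaving out SNL striatum 3, 19, 23 or 27 or SL striatum 4, 12 or 20 raised the adjusted p to between 0.0604 and 0.137. Of 28 glutamate receptor, auxiliary and scaffold genes tested, it was the only one at an unadjusted p under 0.05, and the list median was 0.01.

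Over the 11 arrays the genes most like Nmu by Pearson correlation were Fst (0.958), Scarf1, a scavenger receptor (0.945), Nts (0.944), Krt17 (0.937) and Nipal2, a probable magnesium transporter (0.917). These values describe a shared difference between the groups as well as any shared variation within them, and the arrays are common to both genes of a pair. Of the SL arrays, striatum 28 was highest for Nmu, Nts, Tac3, Fst, Krt17 and Upb1, and the lowest was striatum 4 for Nmu, Tac3 and Krt17 and striatum 12 for Nts, Fst and Upb1. Scarf1 rested on a small difference (log2 fold change 0.28, 95% confidence interval 0.09 to 0.48, adjusted p = 0.908), and Nipal2 passed with the random block and not without it (log2 fold change 0.38, adjusted p = 0.0359).

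Other genes were called with the random block and not without it in the main setting. Edc4, a scaffold of mRNA decapping, had a log2 fold change of 0.86 and was detected on 1 of 5 SNL and 6 of 6 SL arrays (adjusted p = 0.178, and 0.00763 with the block). Cflar, which encodes the caspase inhibitor c-FLIP, had one of 0.72 (adjusted p = 0.239 and 0.0382) and was also called with array weights and no block. Psmb10, a subunit of the immunoproteasome, had one of 0.79 (adjusted p = 0.361 and 0.0382). For Psmb10, SNL striatum 19 at 8.60 lay far below the other SNL values of 9.55 to 9.83, and the log2 fold change was 0.57 without it. A second probe of that gene gave 0.68. Sox11, a transcription factor of immature neurons, differed by 0.64 on the log2 scale (adjusted p = 0.407, and 0.0122 with the random block and 0.0283 with the fixed block). Its groups overlapped, but within the 5 neighbouring pairs it differed by 0.66 to 0.78. Fxyd5, a regulator of the sodium pump, differed by 0.49 (adjusted p = 0.189 and 0.00904) and was detected on 2 of 5 SNL arrays.

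Among the 15 highest and 15 lowest log2 fold changes with an unadjusted p under 0.025, those not yet described were further from the threshold, each with an adjusted p of 0.467 or more. Higher on the DA-depleted side were the beta globins Hbb-b1 and Hbb (0.85 and 0.76), Pafah1b3, a platelet-activating factor hydrolase subunit (0.80), Ptgs2, which encodes cyclooxygenase 2 (0.78), and Tnnc2, fast-muscle troponin C (0.74). The globin transcripts belong to red cells, and Hbb was lowest in SNL striatum 19 at 11.35, against 12.28 to 12.73 in the other SNL and 12.54 to 13.45 in the SL arrays. Its log2 fold change was 0.54 without that striatum. Lower were Kcnab1, a beta subunit of potassium channels (-0.70), P2ry1, a receptor for ADP (-0.69), Stc1, the hormone stanniocalcin 1 (-0.64), Pcdh20 and Cdh7, 2 cadherin family members (-0.58 and -0.47), Klhl4 (-0.55), Zc3h6 (-0.50), Usp1, a deubiquitinase (-0.48), Gsn, the actin-severing protein gelsolin (-0.47), Wdr44 (-0.46), Gatm, the first enzyme of creatine synthesis (-0.46), Plppr1 (-0.45) and Hsp90aa1, an HSP90 chaperone (-0.45). P2ry1 was detected on 2 of 6 SL and 5 of 5 SNL arrays and read 4.59 to 5.48 in SL against 5.41 to 6.01 in SNL.

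Of the spiny neuron genes outside the peptides 0 were called. Of the 9 direct-pathway markers 7 were tested, and their log2 fold changes were all below 0, against 54.5% of all genes with a symbol. They ran from -1.01 in Tac1 and -0.72 in Pdyn over -0.35 in Drd1, -0.27 in Chrm4, -0.22 in Ebf1 and -0.13 in Isl1 to -0.09 in Sfxn1, with a median of -0.27. All but Tac1 and Pdyn had an unadjusted p above 0.05 in limma. Without SNL striatum 19 the median was -0.22 and 6 of the 7 were below 0. Drd1, the D1 receptor gene, read 9.55, 8.65, 9.14, 8.58 and 8.57 in SNL and 8.02 to 8.99 in SL, and was lower in 3 of 5 neighbouring pairs. Of 8 indirect-pathway markers 3 were tested, Penk at 0.54, Drd2, the D2 receptor gene, at 0.09 (95% confidence interval -0.21 to 0.39) and Adora2a, an adenosine receptor gene, at -0.17. The 23 tested genes of spiny neuron identity and signalling had a median of -0.08, which was 0.04 without SNL striatum 19, and ran from -0.37 in the phosphodiesterase gene Pde10a to 0.64 in the cannabinoid receptor gene Cnr1 (unadjusted p = 0.0512). In bulk tissue, fewer cells of a type and less RNA per cell cannot be told apart.

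**Figure D3:**
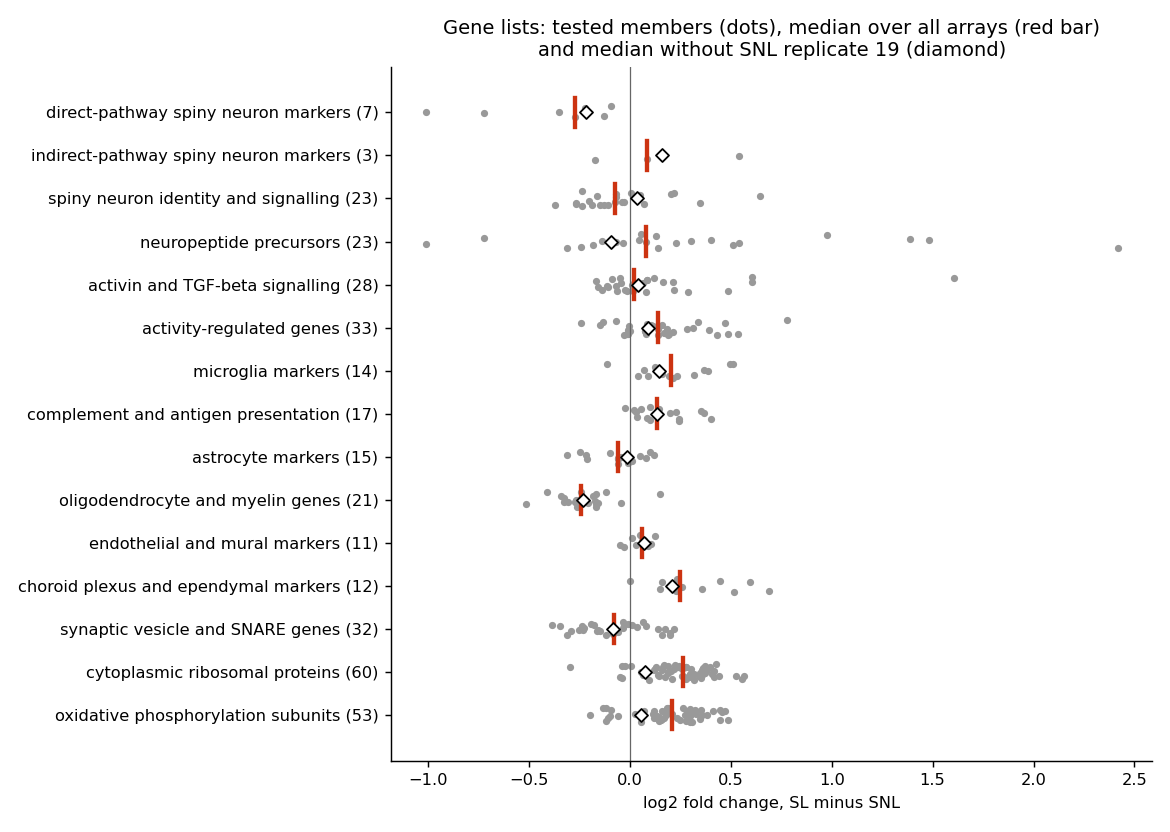
Log2 fold changes (SL minus SNL, horizontal axis) of the tested members of 15 gene lists, 1 grey dot per gene, with the number tested in brackets. The red bar is the median over all arrays and the diamond the median without SNL striatum 19, which moved the ribosomal median from 0.26 to 0.07.

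Glial gene lists leaned in opposite directions without a single call. Of 27 oligodendrocyte and myelin genes 21 were tested, 20 had log2 fold changes below 0, against 54.5% of all genes with a symbol, and the median was -0.25. At an unadjusted p under 0.05, 6 were lower, the myelin genes Mal (-0.41), Mobp (-0.34) and Cnp (-0.27), Gpr37 (-0.33), Tspan2 (-0.27) and Tf (-0.21), against 2.64% of genes with a symbol. The mean level of the list ran from 9.78 to 10.31 over the SNL arrays and from 9.65 to 10.03 over the SL arrays, so the groups overlapped, with SNL striatum 3 low and SL striatum 4 high for their groups. Without SNL striatum 19, 1 gene (Mal, -0.34) was left at that threshold, against 0.734% of genes with a symbol, while the median was -0.23. In the fit of METH-treated rats the same list had a median of 0.03 with 12 of 21 genes above 0, against 49.5% of all probes in that contrast. For Mal the lesion difference after METH less that after saline was 0.44 (unadjusted p = 0.00905, not passed after adjustment), and for the list as a whole it was not tested.

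Of 22 microglia markers 14 were tested, and 13 had log2 fold changes above 0, against 45.5% of all genes with a symbol. At an unadjusted p under 0.05, 5 were higher, the calcium-binding protein gene Aif1 (0.51), the Fc receptor chain Fcer1g (0.50), Trem2 (0.38), the protease gene Ctss (0.37) and the adaptor gene Tyrobp (0.31), against 2.16% of genes with a symbol. The exception was P2ry12, a receptor of resting microglia, at -0.11. SNL striatum 19 had the lowest mean level of the list, 7.13 against 7.41 to 7.67 in the other SNL and 7.44 to 7.91 in the SL arrays. Without it 12 of the 14 were above 0, and 1 gene, Ctss (0.36), was left at that threshold, against 0.988% of genes with a symbol. The median went from 0.20 to 0.14. In the METH-treated rats the microglia list had a median of 0.08 with 11 of 14 genes above 0, against 49.5% of all probes. There 0 of them had an unadjusted p under 0.05, and the difference between the contrasts was not tested for the list. Of 17 complement and antigen presentation genes tested, 16 were above 0 after saline with a median of 0.13, and RT1-Db1 (0.35) and Psmb8 (0.36) had an unadjusted p under 0.05. Without SNL striatum 19, 14 were above 0, RT1-Db1 was left at that threshold, and Psmb8 was at 0.28 (unadjusted p = 0.117). Of 15 astrocyte markers, 0 had an unadjusted p under 0.05 and the median was -0.06, with Gfap at -0.25, and the 6 reactive astrocyte genes tested had a median of -0.04.

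Markers of tissue next to or within the striatum varied between single arrays. All 12 choroid plexus and ependymal markers tested had log2 fold changes above 0 with a median of 0.25, and 0 had an unadjusted p under 0.05. Without SNL striatum 19, 10 of the 12 were above 0 and the median was 0.21. Ttr, the transthyretin gene of the choroid plexus, read 13.63 in SL striatum 4, 12.57 in SNL striatum 11 and 11.19 in SL striatum 12, and 6.85 to 8.57 on the other 8 arrays. Without SL striatum 4 the list median was -0.16, and the part of these transcripts in other differences was not tested. Of the 9 cortical markers tested, 0 had an unadjusted p under 0.05, and the median was 0.01, or -0.10 without SNL striatum 19. Endothelial and mural markers (11 tested) had a median of 0.06. Striatal interneuron markers (15 tested) had one of -0.07, or -0.18 without SNL striatum 19, and no unadjusted p under 0.05 in the full set.

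The size of the differences in genes of protein synthesis and respiration depended on 1 array. Against 45.5% of all genes with a symbol, 55 of the 60 ribosomal protein genes tested had log2 fold changes above 0, with a median of 0.26, and the 53 subunits of oxidative phosphorylation one of 0.21 with 45 above 0. The mean level of the ribosomal list was 10.10 in SNL striatum 19, 10.86 to 11.08 in the other SNL arrays and 10.90 to 11.18 in the SL arrays. Without SNL striatum 19 the medians were 0.07 and 0.05, and the 3 ribosomal and 3 respiratory genes higher at an unadjusted p under 0.05 (2.16% over all genes with a symbol) became 0 and 0 (0.988%). Still without that array, 50 of the 60 and 39 of the 53 had log2 fold changes above 0, against 3454 of the 7088 genes with a symbol. Over all probes the number with an unadjusted p under 0.05 was 460 with it and 162 without it (91 higher and 71 lower, 0.935% and 0.73%).

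**Figure D4:**
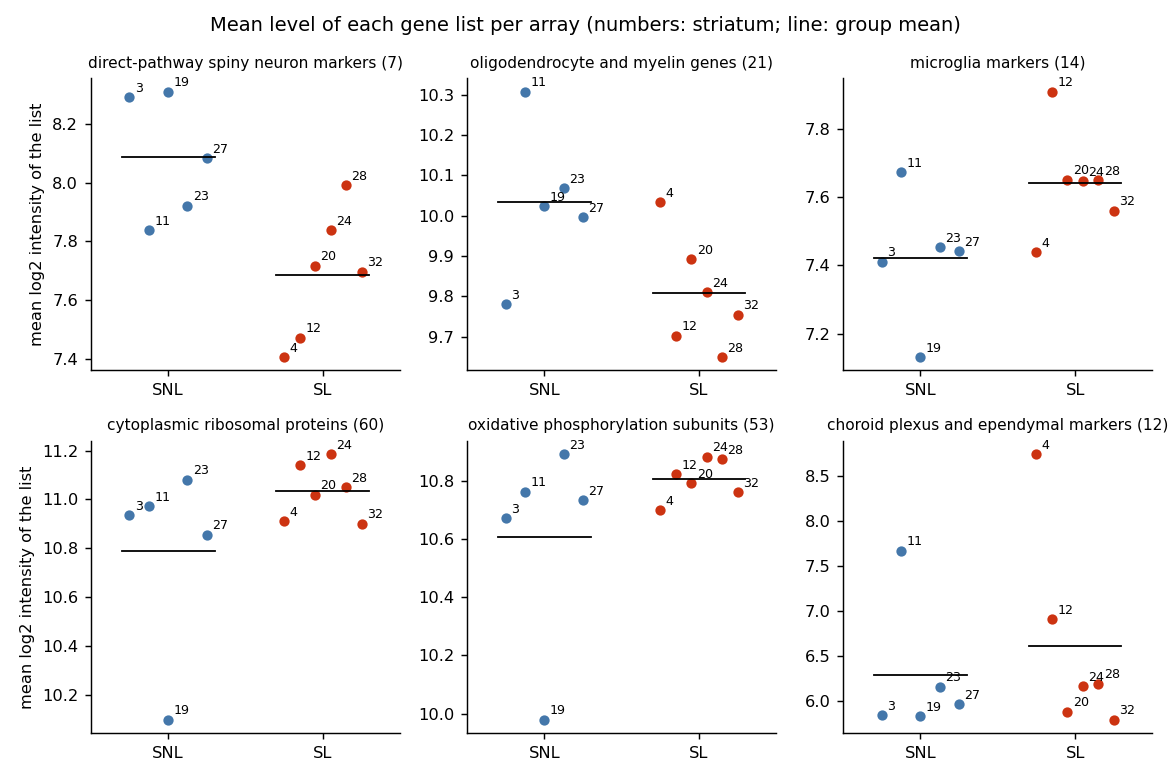
Mean log2 intensity of 6 gene lists (vertical axis, scaled to each list) on each SNL and SL array, labelled by striatum number, with a line at the group mean. SNL striatum 19 lies below all other arrays for the ribosomal and respiratory lists, and SL striatum 4 above them for the choroid plexus list.

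Activity-regulated genes, which neurons switch on within minutes to hours of stimulation, were tested in 33 cases. Their log2 fold changes were above 0 in 23, against 45.5% of all genes with a symbol, with a median of 0.14, and 0 were called. Ptgs2 (0.78), Inhba (0.49) and Junb, an AP-1 subunit (0.43), were higher at an unadjusted p under 0.05, as were 2.16% of genes with a symbol. Without SNL striatum 19, 21 of the 33 were above 0 and the median was 0.09. Ptgs2 and Inhba were then left at that threshold, and Junb was at 0.27 (unadjusted p = 0.182). Ptgs2 read 8.39, 8.00, 7.58, 7.05 and 8.08 in SNL and 8.19 to 9.13 in SL, so the groups overlapped in 1 SNL array. Egr1, a zinc finger factor, was at -0.02 and Fos, another AP-1 subunit, at 0.31. Nr4a1 was detected on 0 of 31 arrays. Of the monoamine receptors and breakdown enzymes, 10 of 29 were tested and 0 were called, with Htr1d, a serotonin receptor gene, at -0.33 (unadjusted p = 0.0208, and 0.0546 without SNL striatum 19) and Maoa at -0.17. Synaptic vesicle genes (32 tested, median -0.08), GABA receptor genes (9 tested, median -0.12), ion channel genes (50 tested, median -0.07), chaperones (58 tested, median -0.01), proteasome subunits (32 tested, median 0.06), trophic factors (16 tested, 8 above 0) and precursor cell markers of the oligodendrocyte lineage (6 tested, median 0.04) held no call without the block. Without SNL striatum 19 the proteasome median was 0.02, the ion channel median -0.02 and the GABA receptor median -0.07. Of 13 DA neuron genes 3 were tested, with log2 fold changes of -0.25 to -0.11 (-0.35 to -0.20 without SNL striatum 19).

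The same lesion contrast in the METH-treated rats shares no array with the one above. Both came from 1 fit with a shared estimate of the spread for each probe, so their p-values are not independent. In the METH contrast 5 probes were higher and 7 lower on the lesioned side (ML minus MNL) at an adjusted p under 0.05 (0.0514% and 0.0719%). All 8 genes called after saline had a positive log2 fold change there too, at an unadjusted p under 0.05 in 8 of 8, against 49.5% of probes above 0 (50.5% below) and 0.843% higher at that p (1.37% lower). The adjusted p passed for Nmu (1.88, adjusted p = 0.00173), Fst (1.35, 0.00408), Shisa8 (1.08, 0.00573), Tac3 (1.14, 0.0102) and Upb1 (1.25, 0.0288), the only 5 that were higher. It did not for Nts (1.16, 0.0563), Krt17 (1.21, 0.747) and Pmepa1 (0.26, adjusted p at 1 after rounding). In 5 of the 8 every ML array lay above every MNL array, as for 6 of all probes (0.0617%). Tac1 was lower there too and passed (-1.38, standard error 0.23, adjusted p = 0.00408), Pdyn gave -0.80 (adjusted p = 0.0708) and Penk 0.54 (adjusted p = 0.455).

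The difference between the lesion contrasts was tested for each probe, and 0 passed at an adjusted p under 0.05 in the main limma fit (208, or 2.14%, at an unadjusted p under 0.05). For Nmu the lesion difference after METH less that after saline was -0.53 (95% confidence interval -1.36 to 0.29), for Fst -0.26 (-0.91 to 0.39), for Tac3 -0.25 (-0.88 to 0.38), for Nts -0.33 (-1.07 to 0.42), for Tac1 -0.37 (-1.05 to 0.31) and for Pdyn -0.08 (-0.61 to 0.46). Each of these intervals holds 0. Among the 17 genes called with the block, 3 had an unadjusted p under 0.05 for this difference: Fxyd5 (-0.60, unadjusted p = 0.000902), Amhr2 (-0.51, 0.00686) and Pmepa1 (-0.35, 0.0484), each with an adjusted p of 0.976 or more. With the block, 8 probes passed, all with a lower lesion difference after METH, among them Egr2 (-1.89, adjusted p = 0.00292), Egr4 (-1.59), Arc (-1.47), Junb (-1.14) and Egr1 (-0.96). After saline alone these 5 had log2 fold changes of 0.39, 0.47, 0.54, 0.43 and -0.02, none of them called.

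**Figure D5:**
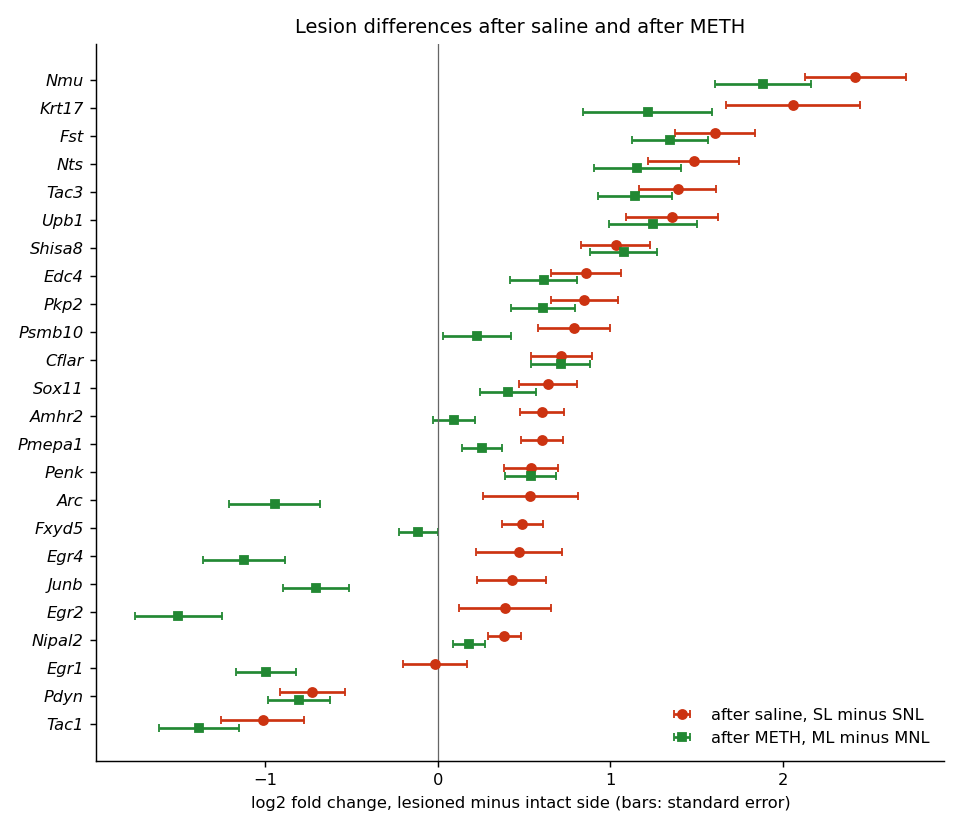
Log2 fold change of the lesioned against the intact side (horizontal axis) after saline (red circles, 6 SL and 5 SNL arrays) and after METH (green squares, 6 ML and 6 MNL arrays) for the 17 genes called with the block, Pdyn, Penk and 5 activity-regulated genes, with standard errors. The peptide genes lie on the same side of 0 in both, Egr2, Egr4, Arc and Junb on opposite sides.

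Against unlesioned saline-treated rats (SC), which share the SL or SNL arrays with the contrasts above, the intact side gave 0 called probes in either direction, and the lesioned side 9 higher and 7 lower (0.0925% and 0.0719%). Array weights, lower for noisier arrays, were 0.257 and 0.336 for SC striata 6 and 8a and 0.27 for SNL striatum 19. They were 2.43 and 1.37 for SC striata 15 and 16, and were not used in these contrasts. The 0 calls therefore do not show that the intact side equals unlesioned striatum. For the 8 genes the intact side differed from SC by -0.12 to 0.21 and the lesioned side by 2.45 in Nmu, 1.61 in Fst, 1.60 in Tac3, 1.58 in Nts, 1.94 in Krt17, 1.25 in Upb1, 1.12 in Shisa8 and 0.51 in Pmepa1. The adjusted p was 0.0613 for Upb1 and 0.097 for Pmepa1, and at most 0.04 for the other 6. Tac1 in SC lay between 11.17 and 12.21, against which the lesioned side stood at -1.43 (adjusted p = 0.0097) and the intact side at -0.42. Pdyn lay between 7.59 and 8.34 in SC, with -0.997 for the lesioned side (adjusted p = 0.0242) and -0.27 for the intact side. Nipal2 was also higher in SL than in SC (0.47, adjusted p = 0.0414).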

How the data were processed

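Total RNA of each striatum was labelled and hybridised to an Illumina RatRef-12 BeadChip. The authors deposited, from BeadStudio, background-subtracted signal intensities with their detection p-values, not normalized between arrays, and a separate log2 table, which served as an alternative only. With 1 constant per probe taken off, 97.3% of the values of this log2 table lay within 0.02 of the log2 signals. It thus held little scaling between arrays, and its array medians were aligned before the fit. Of its value columns 1 held no expression values and was not used. In 2 of the 31 arrays (SL 32 and ML 22) the values stood 4 rows off their probe names, which was found by correlation with the other arrays, and they were moved back, which left 22519 of 22523 probes.

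The intensities were background-corrected with normexp from the detection p-values, quantile-normalized and put on the log2 scale with an offset of 16 (neqc, limma 3.58.1, R 4.3.3). A probe was tested where its detection p was under 0.01 on 4 or more arrays (9732 probes). One linear model held the 6 group means over all 31 arrays, so that the groups share 1 estimate of the spread (25 residual degrees of freedom, 4.85 prior), with moderated tests (lmFit, eBayes) and Benjamini-Hochberg adjustment. The study's own limits (1.7-fold, unadjusted p below 0.025) were applied too. The number of arrays limits the precision. Single values were compared by exact permutation (scipy 1.17.1, Python 3.11.15). The fit was tested on simulated data.

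Gene names came from the platform annotation, updated through gene ID to RefSeq GRCr8: 13790 of 22519 probes were named and 8729 were not. A gene with several probes is given by the brightest. Names on the array can be old, and probes of close relatives such as the beta globins may share signal. Where 1 group had no detected array, only a bound was computed.

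Genes are named where the adjusted p was under 0.05, among the 15 highest and 15 lowest log2 fold changes with an unadjusted p under 0.025, as up to 4 members with the lowest p of each of 31 gene lists, as genes the study measured by qPCR or DA receptors, or as the 5 genes most correlated with Nmu. Other genes in the text were chosen after their values were seen. The comparison and its gene lists were chosen with earlier results of these data known.

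The groups share no replicate numbers. Neighbouring striatum numbers were checked as pairs: deviations from the group means correlated at 0.173 to 0.493 in the 5 SNL and SL pairs, and each SNL array correlated best with its own neighbour in 5 of 5. They entered as a random block (duplicateCorrelation, estimated correlation 0.348). Alternatives covered scaling, background, filters, array weights, blocks, the deposited table, the methods' t-test and each array left out. Array dates and chips are not given in the sources used here, so no batch was tested.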

Additional observations from a re-analysis of the deposited data

Results flagged for a closer look

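Of 136 groups of values (68 genes, SL and SNL), 15 held an array that stood apart by Dixon's test at the 95% level, where chance marks about 1 in 20 groups. The arrays concerned were SNL striatum 19 in 7 cases and SL striatum 12 in 4. In SNL striatum 19 the log2 intensity was low for Psmb10 (8.60, nearest other SNL array 9.55), Tnnc2 (6.92, 7.75), Trem2 (8.15, 8.66), Atp5mc1 (10.89, 11.96), Atp5pd (7.45, 8.67), Rpl23a (12.66, 13.42) and Rps10 (11.65, 12.6). In SL striatum 12 it was high for Fxyd5 (6.26, nearest other SL array 5.68), Atp5pd (9.43, 9.06) and Rpl23a (13.84, 13.66) and low for Gatm (7.21, 7.75). SL striatum 28 was high for Edc4 (6.43, 5.80), SL striatum 24 low for Pcdh20 (7.16, 7.59), SL striatum 4 low for Trem2 (8.56, 9.08), and SNL striatum 23 high for Gsn (10.91, 10.41). None of the 8 called genes had an array that stood apart in this way.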

How the results depend on the processing

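Over 26 alternatives Nmu and Fst were called in 24, Tac3 in 22 and Nts in 21, each missing under both forms of the methods' t-test. Upb1 was called in 10 and Pmepa1 in 11. Krt17 and Shisa8, tested in only 25 of the alternatives, were called in 13 and 11. The count of 8 called probes was 4 with the deposited log2 table, 3 with all probes tested, 3 with the SL and SNL arrays alone, and 5 without the realigned arrays. It was 5 with the neighbouring numbers as a fixed replicate block, 17 with them as a random replicate block, and 13 with the random replicate block and no SNL striatum 19, an alternative chosen after seeing the data. The methods' t-test, with signals floored at 1 or 16, was run on all 22519 probes, not the 9732 of the main fit. It gave 0 after adjustment, which the paper does not mention, and 606 or 226 at an unadjusted p under 0.05. Limma on all 22519 probes gave 873 at that threshold. Array median signals were 7.83 to 12.7, so at the floor of 16 the medians were all equal and could not scale the arrays. The t-test values, here and below, are therefore not comparable with the main counts and do not test the paper's own normalization. Leaving out 1 array gave 3 (SNL striatum 19) to 8 probes, with 4 without SNL striatum 3, 23 or 27 and 5 without SL striatum 28 or 32. The 14 probes at 1.7-fold became 24 without normexp, 7 with an offset of 50, 32 with the deposited table, 9 among probes detected on all 31 arrays and 119 under the t-test with the floor of 1, and 10 (without SNL striatum 19) to 22 (without SNL striatum 23) with 1 array left out. The 12 probes of the METH contrast became 29 with the replicate block and 32 with it and no SNL striatum 19. The 0 probes that differed between lesion contrasts became 8 and 5. Acvr1, which stayed between -0.10 (without SL striatum 32) and 0.11, turned from -0.03 to 0.10 with array weights, 0.04 without SNL striatum 19, 0.01 without SNL striatum 27, 0.0011 without SL striatum 4 and 0.11 without SL striatum 12. The share of higher probes at an unadjusted p under 0.05 was 46.3%, and 63.9% with the deposited table, 56.2% without SNL striatum 19 and 21.2% under the t-test with the floor of 16. The causes were not tested. The groups share no replicate numbers, and the pairs rest on neighbouring numbers alone. Signals near background limit, among other genes, Shisa8, Edc4, Pkp2, Fxyd5, Inhba, P2ry1, Fos, Tyrobp and RT1-Db1, which were not detected on every array. Fos was detected on 4 of 6 SL and 1 of 5 SNL arrays, Tyrobp on 4 and 2, and RT1-Db1 on 6 and 3.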
